A study of Mus musculus with 12 samples.

Results

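The genes of the urea cycle and of glutamine handling were followed in nuclei from mouse liver, from freshly isolated liver cells and from hepatocytes kept in culture. There were 10 of them, chosen by symbol from the 32285 genes in the deposited matrices: Nags, Cps1 and Otc, whose enzymes work in the mitochondrion, Ass1, Asl and Arg1, whose enzymes work in the cytosol, the mitochondrial carriers Slc25a15 and Slc25a13, and Glul and Gls2, which make and break down glutamine. Their RNA was read in 44788 hepatocyte nuclei of 53467 nuclei in all, with 5435 endothelial nuclei of the same samples as the background. Whether endothelial cells make some of these RNAs themselves was not tested. Every sample came from wild-type male mice aged 10 to 12 weeks, fed chow ad libitum, whose strain is C57BL6J in the labels and C57BL/6NTac in the published methods. Liver was a piece of the median lobe frozen after the blood had been flushed out, Cell Suspension was the washed cells after collagenase perfusion of the rest of the liver, and Primary Hepatocytes were those cells after 24 hours on collagen-coated plastic in medium with 1 µM dexamethasone and 1 nM insulin. Each of the 8 mice gave all 3 sample types, so there were 24 samples. Hepatocytes were enriched by low-speed spins and not sorted by a marker, so other liver cells could stay among them.

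Ammonia, which amino acid breakdown releases and which is toxic to the brain, is cleared in the liver along the path of the blood through the lobule. Hepatocytes near the portal vein take it up into the urea cycle, with glutaminase 2 adding ammonia from glutamine, while a thin layer of hepatocytes around the central vein catches what escapes by joining it to glutamate through glutamine synthetase. Most urea cycle enzymes are made in large amounts almost exclusively in hepatocytes, and their genes are classic targets of glucocorticoids, glucagon and liver transcription factors.

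Positions and start sites show how differently these genes are built, which matters for nuclear RNA because introns supply many of the reads. In GRCm38, Slc25a13 spans chr6:6041218-6217173 (- strand), with 97.8% of its length in introns, Cps1 spans chr1:67123026-67231259 (+ strand) with 94.9%, Otc spans chrX:10252305-10321024 (+ strand) with 93.8% and Glul spans chr1:153899944-153909723 (+ strand) with 66.0%. Nags is the shortest of the 10, at chr11:102145513-102149477 (+ strand), and only 28.4% of it is intron. The other members lie at chr2:31470207-31520672 (+ strand) for Ass1, chr5:130011258-130029247 (- strand) for Asl, chr10:24915221-24927484 (- strand) for Arg1, chr8:22375551-22398597 (- strand) for Slc25a15 and chr10:128194457-128210004 (+ strand) for Gls2. Promoter sequences from RefSeq (GRCm38.p6) were matched for 6 of the 10 members, namely Otc, Ass1, Nags, Slc25a15, Slc25a13 and Glul. Those of Otc, Glul and Slc25a13 are shown, because Otc fell most in culture, Slc25a13 fell least, and Glul is the member of the central vein. Each is the 250 bases before the start site, 5′ to 3′ on the gene's strand, at chrX:10252055-10252304 (+ strand), chr1:153899679-153899928 (+ strand) and chr6:6217174-6217423 (- strand). Capitals mark matches on either strand to any of 5 short motifs.
Otc: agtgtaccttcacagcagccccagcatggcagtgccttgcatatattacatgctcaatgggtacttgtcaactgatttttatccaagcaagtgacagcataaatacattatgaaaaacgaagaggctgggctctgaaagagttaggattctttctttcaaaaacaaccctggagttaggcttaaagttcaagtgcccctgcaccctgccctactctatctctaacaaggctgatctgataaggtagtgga
Glul: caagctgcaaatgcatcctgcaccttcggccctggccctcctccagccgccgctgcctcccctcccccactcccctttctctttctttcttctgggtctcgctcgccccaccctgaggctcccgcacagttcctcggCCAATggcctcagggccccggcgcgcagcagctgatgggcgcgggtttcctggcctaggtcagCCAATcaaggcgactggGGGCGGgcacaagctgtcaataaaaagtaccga
Slc25a13: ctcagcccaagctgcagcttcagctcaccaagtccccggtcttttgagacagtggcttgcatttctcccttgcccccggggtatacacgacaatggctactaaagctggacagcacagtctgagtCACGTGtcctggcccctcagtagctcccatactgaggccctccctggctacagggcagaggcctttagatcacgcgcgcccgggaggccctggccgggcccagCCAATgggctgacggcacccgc
The motifs were the TATA box TATAAA, found in 12.4% of 32841 promoters of this length, the CCAAT box CCAAT (33.9%), the C/EBP motif TTGCNNAA (9.57%), the GC box GGGCGG (32.7%) and the E-box CACGTG (6.02%). Otc had no match to these letters in this window. The Glul promoter held 2 CCAAT boxes, at -113 and -50 from the start, and 1 GC box at -33, and that of Slc25a13 held 1 CCAAT box at -22 and 1 E-box at -125. A match describes the letters and does not show that a factor binds there.

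The labels were checked before the levels were read. Hepatocyte nuclei held 6872031 to 29023569 UMIs per Liver sample, 2104087 to 17452582 per Cell Suspension sample and 9852007 to 21226254 per Primary Hepatocytes sample, and endothelial nuclei held 95289 to 2578536, from as few as 29 nuclei. The summed level of 7 hepatocyte markers (albumin and others) in hepatocyte nuclei was 5571 to 8445 CPM (UMIs scaled to a fixed total per sample) in Liver, 8240 to 9653 in Cell Suspension and 1765 to 4194 in Primary Hepatocytes, where it overlapped the 976 to 3452 CPM of endothelial nuclei. The 9 endothelial markers, by contrast, stayed apart in culture, at 78.5 to 145 CPM in hepatocyte nuclei and 4994 to 8007 CPM in endothelial nuclei. Cultured nuclei carry no finer name in the deposited table than cultured cells, so they were taken as hepatocytes by default unless the summed level of another marker list reached 2 times its mean over clusters. In 2 clusters kept under this rule, which held 7117 of the 16283 cultured hepatocyte nuclei, stellate markers stood higher against that mean than hepatocyte markers (0.823 against 0.566 times in cluster 1, 1.19 against 0.781 times in cluster 17), and the falls in culture were also fitted without them. In hepatocyte nuclei from Liver to Primary Hepatocytes, the summed level of 8 stellate markers moved from 18.7 to 46.0 to 77.6 to 641 CPM, that of 9 endothelial markers from 29.5 to 47.2 to 78.5 to 145 CPM and that of 6 leukocyte markers from 8.37 to 18.5 to 28.4 to 43.1 CPM, with none of these markers at 0. For the stellate markers, the fits without clusters 1 and 17 are given beside results for Cps1 and Glul, and the part of the endothelial and leukocyte markers was not tested. Liver and Primary Hepatocytes were loaded together in only 2 of 6 pools, and 337 cell barcodes occurred in more than 1 pool, where the pool keeps them apart.

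All 10 genes fell in hepatocyte nuclei between Liver and Primary Hepatocytes, by 2.62-fold (Slc25a13) to 48.4-fold (Otc). Each passed the edgeR quasi-likelihood test with Benjamini-Hochberg adjustment over 26778 genes, in a setting where 53.7% of all genes tested passed and 26.3% passed with a lower level. For each gene the highest Primary Hepatocytes sample lay below the lowest Liver sample in TMM-scaled CPM, which was true of 16.2% of genes tested. In plain CPM, without TMM factors, these ranges overlapped for Slc25a13 (875 to 1495 in Liver, 559 to 940 in culture). They also overlapped for Arg1 (332 to 1476 in Liver, 71.2 to 373 in culture). The median log2 difference of the 10 members was -3.32, against 0.10 over all genes tested, and each gene was lower in culture in 8 of 8 mice. Levels here are CPM scaled with TMM factors, from sums of spliced, unspliced and ambiguous UMIs of a sample's hepatocyte nuclei. They are relative levels of nuclear RNA, neither plain shares of it nor amounts per cell. As plain shares the falls were smaller. Mean plain CPM went from 452 in Liver to 13.9 in culture for Otc, from 5098 to 1213 for Cps1 and from 1212 to 679 for Slc25a13.

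Among the mitochondrial steps, Otc changed most. Nags makes N-acetylglutamate, without which carbamoyl phosphate synthetase 1 is idle, and it ranged over 9.51 to 15.7 CPM in Liver (median 11.9), 6.11 to 19.1 in Cell Suspension (median 10.9) and 1.75 to 3.34 in Primary Hepatocytes (median 2.24). The cultured samples lay below all others, and the fall was 5.12-fold (log2 -2.36, SE 0.19, adjusted p = 4.49e-12). Cps1, the entry step that makes carbamoyl phosphate from ammonia, ranged over 3650 to 8822 CPM in Liver (median 5272), 4539 to 9127 in Cell Suspension (median 6466) and 361 to 1851 in Primary Hepatocytes (median 757). The mice spread widely in culture, with mouse 7 lowest and mouse 6 highest, and yet no cultured sample reached the lowest Liver sample. The fall was 6.27-fold (log2 -2.65, SE 0.28). Without clusters 1 and 17 it was steeper (log2 -3.24, adjusted p = 4.67e-13). The within-mouse log2 differences of Cps1 from Liver to Primary Hepatocytes were -3.96 to -1.32, and those within the 2 shared pools were -3.94 to -2.31. Otc, which joins carbamoyl phosphate to ornithine to give citrulline, ranged over 375 to 635 CPM in Liver (median 529), 292 to 563 in Cell Suspension (median 428) and 6.73 to 17.3 in Primary Hepatocytes (median 8.78). Liver and Cell Suspension overlapped, while the cultured samples were far below both. Its fall was 48.4-fold (log2 -5.60, SE 0.22, adjusted p = 2.87e-19), at -5.58 to -4.95 within the shared pools.

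In the cytosol, Ass1 and Asl fell further than Arg1. Argininosuccinate synthase, the product of Ass1, ties citrulline to aspartate, and its gene ranged over 1046 to 3183 CPM in Liver (median 1713), 1040 to 3875 in Cell Suspension (median 2396) and 65.6 to 128 in Primary Hepatocytes (median 103). Its cultured samples sat close together and well below the rest, a fall of 18.2-fold (log2 -4.19, SE 0.27, adjusted p = 2.03e-14). Asl, which splits argininosuccinate into arginine and fumarate, ranged over 216 to 758 CPM in Liver (median 567), 543 to 1195 in Cell Suspension (median 1030) and 22.8 to 42.1 in Primary Hepatocytes (median 28.6). Cell Suspension and Liver overlapped only in part, and the cultured samples were lowest by 18.1-fold (log2 -4.18, SE 0.23, adjusted p = 7.25e-16). Arg1, which releases urea from arginine, ranged over 414 to 1549 CPM in Liver (median 1001), 565 to 2198 in Cell Suspension (median 1111) and 52.5 to 290 in Primary Hepatocytes (median 145). As for Cps1, mouse 7 was lowest and mouse 6 highest in culture, and the fall was 6.19-fold (log2 -2.63, SE 0.34, adjusted p = 5.97e-08). Within the shared pools the log2 differences were -3.83 to -3.48 for Ass1, -4.43 to -2.56 for Asl and -3.42 to -2.18 for Arg1.

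The carriers behaved unequally. Slc25a15, the exchanger that brings ornithine into the mitochondrion and citrulline out, ranged over 89.5 to 275 CPM in Liver (median 183), 113 to 344 in Cell Suspension (median 228) and 11.98 to 27.4 in Primary Hepatocytes (median 18.6). It fell 9.64-fold (log2 -3.27, SE 0.24, adjusted p = 6.16e-13), without overlap. Slc25a13, or citrin, delivers the aspartate that Ass1 consumes, and it ranged over 1092 to 1620 CPM in Liver (median 1305), 1034 to 1683 in Cell Suspension (median 1462) and 383 to 727 in Primary Hepatocytes (median 482). Although its cultured samples too lay below every Liver sample in TMM-scaled CPM, its 2.62-fold fall was the smallest of the 10 (log2 -1.39, SE 0.15, adjusted p = 1.15e-09). Within the shared pools the log2 differences were -3.28 to -2.20 and -1.77 to -1.32. Reads that Slc25a15 shares with its close relative Slc25a2 may have been split between them, and Slc25a2 itself was at most 1.12 CPM in every sample.

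Both arms of glutamine handling fell. Glul, the glutamine synthetase gene, ranged over 124 to 318 CPM in Liver (median 208), 116 to 601 in Cell Suspension (median 364) and 9.49 to 19.9 in Primary Hepatocytes (median 13.6). Mouse 7 was the lowest Cell Suspension sample, just below the Liver range, whereas the cultured samples lay apart from both. Its fall from Liver was 16.4-fold (log2 -4.04, SE 0.26, adjusted p = 1.92e-14). Gls2, the liver glutaminase, ranged over 154 to 297 CPM in Liver (median 221), 138 to 318 in Cell Suspension (median 252) and 18.4 to 24.1 in Primary Hepatocytes (median 22.0). The cultured samples were narrowly grouped, 10.3-fold below Liver (log2 -3.36, SE 0.16, adjusted p = 2.33e-17). Within the shared pools the log2 differences were -4.20 to -3.76 for Glul and -3.77 to -2.88 for Gls2. Glul overlaps Teddm2 on the other strand and Mir8114 on its own, Gls2 overlaps Spryd4 and Nags overlaps Gm11586, both on the other strand. Whether reads of these neighbours were counted for the members was not tested.

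**Figure D1:**
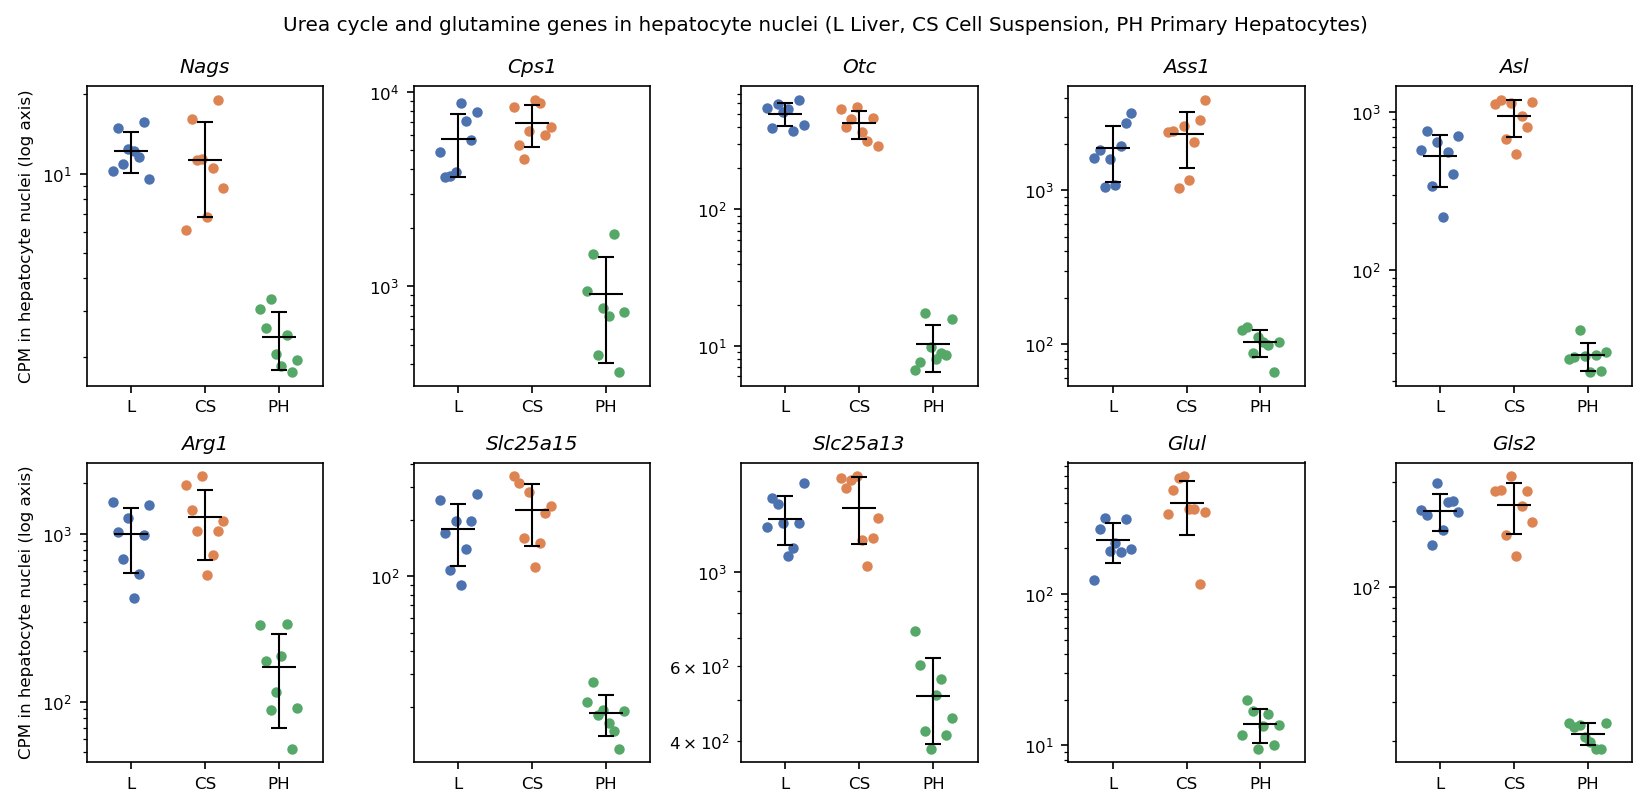
Level of each member in hepatocyte nuclei (TMM-scaled CPM, log axis) in the 8 Liver (L), 8 Cell Suspension (CS) and 8 Primary Hepatocytes (PH) samples, with points for samples ordered by mouse and black bars for the mean ± SD. In every panel the PH points lie below all L and CS points, with the widest gap for Otc and the narrowest for Slc25a13.

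Isolation alone gave a different picture from culture. From Liver to Cell Suspension the ranges of all 10 genes overlapped, and 2 genes passed the test, both higher, where 22.3% of all genes passed in either direction and 8.15% passed with a higher level. Asl rose 1.80-fold (log2 0.85, SE 0.20, adjusted p = 0.00237) and was higher in 8 of 8 mice. Glul rose 1.76-fold (log2 0.82, SE 0.23, adjusted p = 0.00832) in 7 of 8 mice, with log2 differences within the 4 pools that held both types of -1.21 to 1.46, and its call was lost with the pool as a covariate (log2 0.56, adjusted p = 0.173). The other 8 members had log2 differences between -0.24 (Otc) and 0.35 (Slc25a15) that did not pass, among them Cps1 (log2 0.27, SE 0.27, adjusted p = 0.528). From Cell Suspension to Primary Hepatocytes all 10 genes fell, each without overlap in TMM-scaled CPM. There 23.5% of genes passed with a lower level and 12.2% lay lower without overlap. In plain CPM the ranges of Slc25a13 overlapped (912 to 1379 in Cell Suspension, 559 to 940 in culture). The falls ran from -1.48 (Slc25a13) to -5.36 (Otc) on the log2 scale, with -5.03 for Asl and -4.86 for Glul, and both comparisons with culture share the Primary Hepatocytes samples.

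Nuclear RNA keeps introns, so spliced and unspliced UMIs of a gene could be set against each other within each sample. In Liver, 93.6% ± 2.05 (SD, n = 8) of Cps1 UMIs were unspliced, as were 94.1% ± 1.17 of Slc25a13, 90.7% ± 1.05 of Otc, 78.1% ± 3.14 of Gls2, 62.2% ± 4.79 of Glul and 3.22% ± 2.05 of Nags UMIs. Over all genes the unspliced share ran from 74.2% ± 1.70 in Liver over 66.5% ± 3.15 in Cell Suspension to 64.0% ± 1.71 in Primary Hepatocytes. Otc moved from 90.7% ± 1.05 unspliced to 69.7% ± 5.59, so that the lowest Liver sample was above the highest cultured sample. Cps1 moved from 93.6% ± 2.05 to only 90.7% ± 1.35, and its ranges overlapped.

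The plain ratio of spliced to unspliced UMIs over all genes went from 0.238 in Liver to 0.368 after isolation and then 0.404 after culture, shifts of 0.63 and 0.77 on the log2 scale against Liver. The tested values take this shift out by the scaling of the fit, in which the median gene stood at -0.11 in both comparisons with Liver, so they are relative to other genes. Relative to other genes, the ratio rose for 6 of the 10 members from Liver to Primary Hepatocytes and fell for none, where it differed for 17.7% and rose for 8.28% of all genes tested. The rise was steepest for Otc (log2 1.80, SE 0.17, adjusted p = 7.70e-18), followed by Ass1 (log2 1.12, SE 0.16, adjusted p = 3.16e-09) and Asl (log2 1.02, SE 0.15, adjusted p = 2.66e-08). Slc25a15 rose as well (log2 0.64, SE 0.16, adjusted p = 0.00102), and so did Glul (log2 0.49, SE 0.15, adjusted p = 0.0109) and Gls2 (log2 0.46, SE 0.15, adjusted p = 0.0151), whose calls were lost without mouse 8 (log2 0.42, adjusted p = 0.0510 and log2 0.40, adjusted p = 0.0563). Cps1 stood at log2 0.03, SE 0.15, adjusted p = 1.00, and its plain ratio went from 0.0552 to 0.0889 (log2 0.69). Arg1 and Slc25a13 did not pass either (log2 0.36, SE 0.14, adjusted p = 0.0670 and log2 0.21, SE 0.14, adjusted p = 0.357), though both passed under the stricter edgeR filter on expression (log2 0.51, adjusted p = 0.00577 and log2 0.36, adjusted p = 0.0295). Arg1 also passed without mouse 2, 3, 5, 6 or 7, from log2 0.43, adjusted p = 0.0342 without mouse 3 to log2 0.53, adjusted p = 0.00686 without mouse 5. Nags had only 48, 9 and 7 unspliced UMIs in the Liver, Cell Suspension and Primary Hepatocytes samples, too few for a ratio to be read. In culture, hepatocyte nuclei averaged 13.9 plain CPM of Otc, 39.1 of Asl, 138 of Ass1 and 18.5 of Glul. Endothelial nuclei averaged 30.3, 40.2, 115 and 93.5. Slc25a15 and Gls2 were higher in hepatocyte nuclei. The part of background RNA in the cultured ratios, against Liver or Cell Suspension, was not tested.

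From Cell Suspension to Primary Hepatocytes the ratio of 6 members rose relative to other genes, where 14.8% of genes differed and 5.73% rose, with Otc (1.87), Asl (1.55), Ass1 (1.25) and Glul (1.05) ahead of Slc25a15 (0.97) and Slc25a13 (0.51) on the log2 scale. Under the stricter edgeR filter Cps1 (log2 0.49, adjusted p = 0.0233) and Arg1 (log2 0.52, adjusted p = 0.00600) passed there too. From Liver to Cell Suspension, where 13.2% of genes differed, 4.78% being lower and 8.47% higher, the ratio was lower relative to other genes for Glul (log2 -0.56, SE 0.14, adjusted p = 0.00157) and Asl (log2 -0.53, SE 0.14, adjusted p = 0.00498), the same 2 genes whose total level was called higher. Their plain ratios did not fall, being 0.460 to 0.463 for Glul and 0.253 to 0.267 for Asl while that of all genes went up. Gls2 rose both relative to other genes (log2 0.65, SE 0.14, adjusted p = 1.96e-04) and plainly, from 0.234 to 0.488. The call of Asl was lost without mouse 2 (log2 -0.40, adjusted p = 0.0711) or mouse 5 (log2 -0.37, adjusted p = 0.0961), and Slc25a13 was lower relative to other genes under the stricter edgeR filter (log2 -0.42, adjusted p = 0.0185) and with RLE factors (log2 -0.48, adjusted p = 0.00290). With spliced UMIs alone, the level of Glul from Liver to Cell Suspension did not pass (log2 0.49, adjusted p = 0.0799), while Gls2 was higher (log2 0.56, adjusted p = 0.00849) and Nags lower (log2 -0.51, adjusted p = 0.0259).

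**Figure D2:**
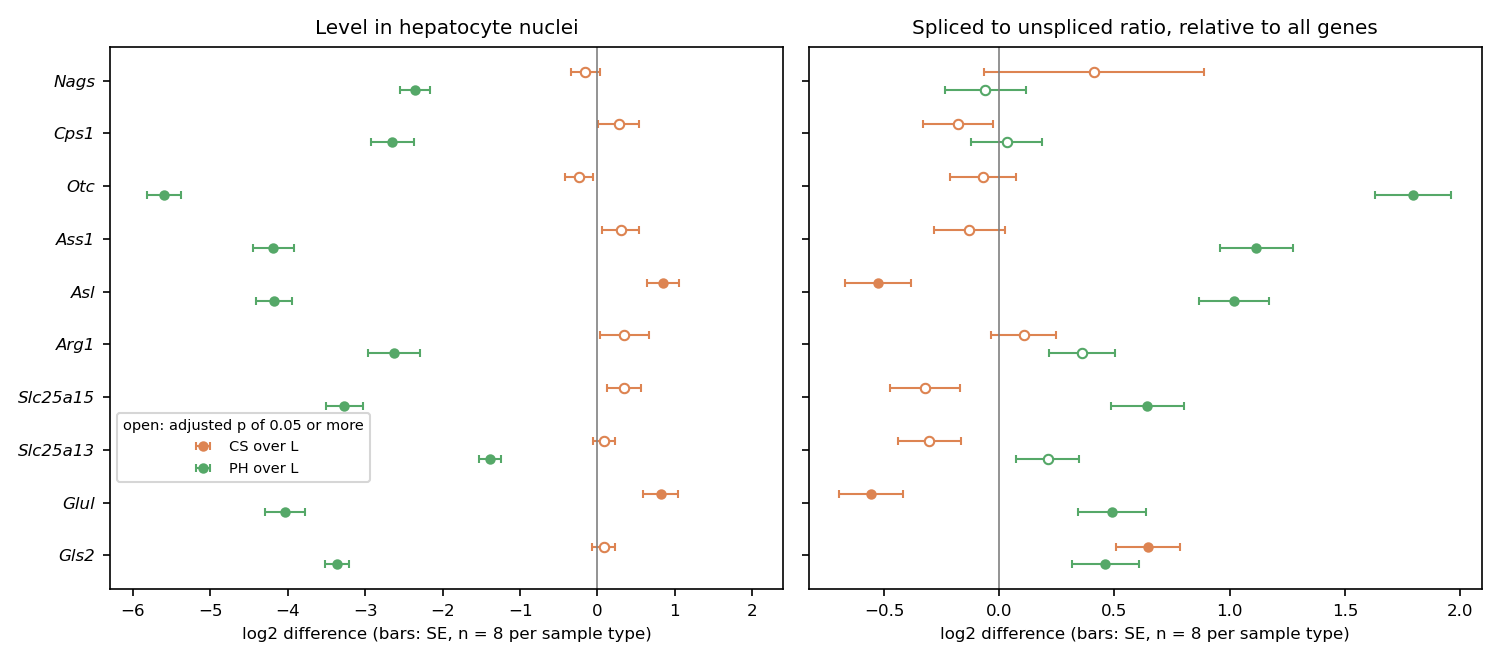
Log2 differences from Liver to Cell Suspension (orange, CS over L) and from Liver to Primary Hepatocytes (green, PH over L) for each member in hepatocyte nuclei, as the level on the left and the ratio of spliced to unspliced UMIs relative to all genes on the right, with bars for the SE and open symbols for an adjusted p of 0.05 or more. All 10 green level values are below 0, down to -5.60 for Otc, while the relative ratio of Otc rose by 1.80 and that of Cps1 stood at 0.03. The ratio of Nags rests on 48, 9 and 7 unspliced UMIs.

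Endothelial nuclei gave the background against which a low hepatocyte level could be read. These levels are plain CPM without TMM factors. In Liver, endothelial nuclei held 13.8% (Slc25a13) to 19.3% (Slc25a15) of the hepatocyte level for 9 members and 27.2% for Glul, and all 10 members were higher in hepatocytes, as were 26.6% of genes tested. The same held in Cell Suspension for 10 of 10, where 20.1% of genes were higher in hepatocytes. In Primary Hepatocytes 7 members were higher in hepatocyte nuclei, where 20.8% of genes were, and 2 were lower, where 11.1% were.

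Slc25a13 kept the clearest lead in culture, at 679 ± 143 CPM in hepatocyte nuclei and 234 ± 64.6 in endothelial nuclei (SD, n = 8; log2 1.76, SE 0.14, adjusted p = 1.06e-20), and it was higher in 8 of 8 samples. With clusters 1 and 17 included, Cps1 came next at 1213 ± 659 against 636 ± 287 CPM (log2 1.09, SE 0.16, adjusted p = 1.45e-08), with 1 sample the other way. Without them its lead was log2 0.59 (adjusted p = 4.49e-04), below those of Arg1 (1.14), Slc25a15 (0.94) and Gls2 (0.72) in that fit. With nuclei thinned to 1000 UMIs each, 37.6% of hepatocyte and 38.9% of endothelial nuclei held a Cps1 UMI. Arg1 held 213 ± 113 against 103 ± 52.4 CPM (log2 1.08, SE 0.19, adjusted p = 9.21e-07), and Ass1 138 ± 31.0 against 115 ± 52.7 CPM (log2 0.50, SE 0.16, adjusted p = 0.0116), with 2 samples the other way for each. Asl could not be told from the endothelial level, at 39.1 ± 8.64 and 40.2 ± 17.6 CPM (log2 0.02, SE 0.19, adjusted p = 0.943). Otc was lower in hepatocyte than in endothelial nuclei, at 13.9 ± 5.22 and 30.3 ± 23.1 CPM (log2 -0.93, SE 0.22, adjusted p = 2.39e-04), in 7 of 8 samples. Glul was lower too, at 18.5 ± 4.75 and 93.5 ± 58.0 CPM (log2 -2.05, SE 0.18, adjusted p = 3.59e-18), in 8 of 8 samples. The mean hepatocyte levels of these 3 genes in culture were thus at or below those of endothelial nuclei, although glutamine synthetase is known from cells other than hepatocytes too. Gls2 and Slc25a15 passed with small leads (log2 0.85, SE 0.23, adjusted p = 0.00141 and log2 0.78, SE 0.24, adjusted p = 0.00745), and Nags rests on 2 endothelial UMIs in culture, so no fold is given.

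The lead of hepatocyte over endothelial nuclei shrank for 9 of 10 members from Liver to Primary Hepatocytes, where 11.6% of genes tested shrank, and for 9 of 10 from Cell Suspension, where 9.90% did. From Liver the log2 change in that lead ran from -1.59 (Slc25a13) over -1.87 (Cps1), -2.77 (Ass1) and -2.79 (Asl) to -3.95 (Otc) and -4.39 (Glul). Without clusters 1 and 17 the change was -2.55 for Cps1, beyond Gls2 (-2.39), Arg1 (-2.10) and Slc25a15 (-2.02), and -4.50 for Glul. From Cell Suspension it was then -3.02 for Cps1 and -3.77 for Glul. Nags was the exception in both comparisons with culture, with too few endothelial UMIs. From Liver to Cell Suspension, where 2.46% of genes differed, only Glul passed (log2 -0.78, SE 0.22, adjusted p = 0.0330). Its endothelial level moved from 55.8 ± 12.6 to 161 ± 45.2 CPM. This call of Glul was lost without mouse 1, 3, 6, 7 or 8 (without mouse 7, log2 -0.52, adjusted p = 0.250). It was also lost without clusters 1 and 17 (log2 -0.73, adjusted p = 0.0507). The hepatocyte marker list in endothelial nuclei moved from 1332 to 3159 CPM in Liver to 1335 to 4850 in Cell Suspension and 976 to 3452 in Primary Hepatocytes, and its part in the endothelial levels of the members was not tested.

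Shares of nuclei with a UMI were compared after each nucleus was thinned to 1000 UMIs. In Liver 88.5% of hepatocyte nuclei held a Cps1 UMI against 42.5% of endothelial nuclei, and 33.1% against 5.99% held an Otc UMI. In Primary Hepatocytes, where 15990 of 16283 hepatocyte and 1328 of 1809 endothelial nuclei were deep enough, the shares were 37.6% and 38.9% for Cps1, 1.64% and 2.74% for Otc, and 41.1% and 15.4% for Slc25a13. Without thinning the cultured shares were 72.7% and 56.1% for Cps1, at median depths of 5916 and 1499 UMIs per nucleus. For Cps1 the thinned share and the CPM point in opposite directions in culture, so its lead there holds for CPM alone. The Otc share in cultured hepatocyte nuclei was at background.

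**Figure D3:**
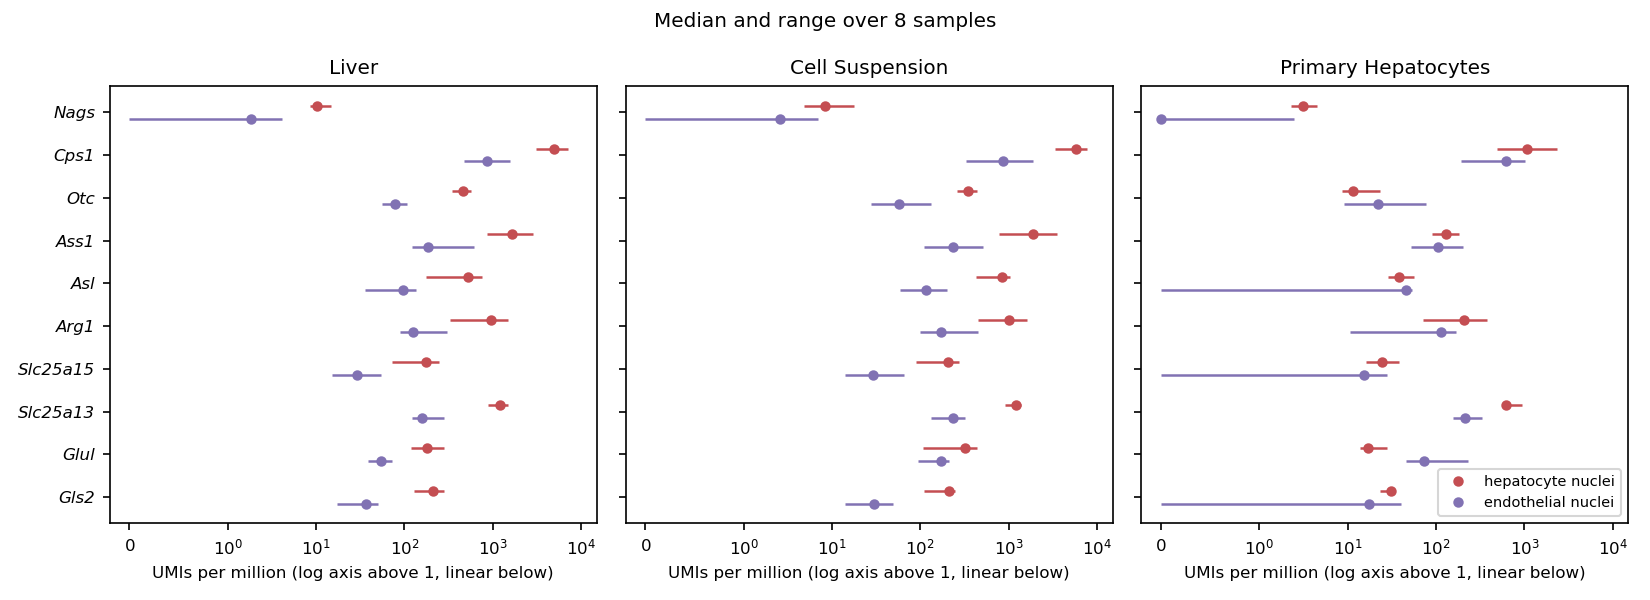
Plain CPM of each member, without TMM factors (log axis above 1, linear below) in hepatocyte nuclei (red) and endothelial nuclei (violet) of Liver, Cell Suspension and Primary Hepatocytes, with points for the median and lines for the range over 8 samples. In Liver the ranges stand apart for every member, whereas in Primary Hepatocytes they stay apart only for Slc25a13 and, with endothelial nuclei above, for Glul. How often the ranges stand apart over all genes was not counted.

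The place of these genes along the lobule was read from genes that are not members. Each hepatocyte nucleus was thinned to 1000 UMIs and scored by the share of 9 pericentral genes among its UMIs from 16 zonation genes, and nuclei with at least 3 such UMIs were ranked within a sample and split into 3 equal groups, of which the outer ones are called the portal side and the central side. In Liver 6 members were lower and 1 was higher on the central side, where 7.31% of genes tested were lower and 7.64% higher. Gls2 had the steepest portal bias, with 382 ± 68.3 CPM on the portal side and 39.3 ± 14.5 on the central side (SD, n = 8; log2 -3.33, SE 0.10, adjusted p = 1.14e-102). Glul was the mirror image, with 20.6 ± 10.1 and 579 ± 194 CPM (log2 4.85, SE 0.13, adjusted p = 1.68e-116), and the portal and central ranges of both genes stood apart. Among the urea cycle enzymes the central side was lower for Asl (log2 -1.50, SE 0.10, adjusted p = 2.72e-40), Arg1 (log2 -1.16, SE 0.10, adjusted p = 5.65e-26) and Ass1 (log2 -1.01, SE 0.10, adjusted p = 4.55e-20), and more mildly for Otc (log2 -0.68, SE 0.09, adjusted p = 2.30e-12) and Cps1 (log2 -0.66, SE 0.11, adjusted p = 4.71e-08), each in 8 of 8 mice. Nags, Slc25a15 and Slc25a13 did not pass (log2 0.06, adjusted p = 0.893, log2 -0.18, adjusted p = 0.181 and log2 0.22, adjusted p = 0.108). Slc25a13 was nevertheless higher on the central side in 8 of 8 mice and passed without mouse 4 (log2 0.26, adjusted p = 0.0404) and in the fit without cultured nuclei of non-cultured name (log2 0.24, adjusted p = 0.0157).

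Cell Suspension kept this pattern in part. There 6 members were lower and 2 higher on the central side, where 7.12% and 6.65% of genes were. Gls2 again was steepest (log2 -3.00, SE 0.11, adjusted p = 1.84e-84), and Asl (-0.84), Arg1 (-0.93), Otc (-0.70), Cps1 (-0.48) and Ass1 (-0.40) followed on the log2 scale. Glul was higher on the central side (log2 2.18, SE 0.12, adjusted p = 7.77e-52), and the small central lead of Nags (log2 0.48, SE 0.18, adjusted p = 0.0495) was lost without mouse 2, 4, 5, 6, 7 or 8 (without mouse 4, log2 0.39, adjusted p = 0.282). The test of the difference between Liver and Cell Suspension, which 0.965% of genes passed, found a flatter slope in Cell Suspension for Glul (log2 -2.67, SE 0.17, adjusted p = 5.90e-37), Asl (log2 0.66, SE 0.13, adjusted p = 4.92e-04) and Ass1 (log2 0.60, SE 0.14, adjusted p = 0.00395). For Glul it was the portal side that differed, at 20.6 ± 10.1 CPM in Liver and 174 ± 101 in Cell Suspension, with ranges of 11.5 to 38.3 and 45.4 to 307 that did not overlap. The pericentral share of zonation UMIs in the central-side nuclei was 80.5% to 100% in Liver and 58.4% to 78.4% in Cell Suspension, so these groups differed in score. In these nuclei, Cyp2e1 averaged 2705 CPM in Liver and 3173 in Cell Suspension, and Cyp2f2 24.0 and 31.8. Over all hepatocyte nuclei, the periportal gene Pck1 averaged 1360 CPM in Liver and 3777 in Cell Suspension, and Cyp2f2 222 and 201. The part of these shifts in the flatter slopes was not tested.

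In culture few nuclei still showed zonation UMIs. Only 38 to 105 nuclei per sample qualified, and 4 of 8 samples (mice 1, 2, 4 and 6) reached the 30 nuclei per side set for the test. The zonation genes did not fall alike over all hepatocyte nuclei. From Liver to culture, mean CPM of periportal Hsd17b13 and Pck1 went from 161 to 150 and from 1360 to 32.8. For pericentral Cyp2a5 and Cyp2e1 it went from 171 to 76.0 and from 1429 to 37.9. The sides of culture may thus rest on another mix of zonation genes than those of Liver. Glul, taken over all these nuclei, differed (log2 4.39, SE 0.40, adjusted p = 1.68e-20), with 7.11 to 437 CPM on the central side and 2.09 to 18.6 on the portal side, and was higher on the central side in 3 of 4 samples. However, 239 of its 260 central-side UMIs came from 6 of 134 nuclei, which the deposited table names as hepatocytes or isolated hepatocytes and not as cultured cells. Without such nuclei mouse 2 had too few for the test, and over the other 3 samples neither Glul (log2 1.49, adjusted p = 0.787) nor Gls2 (log2 -1.77, adjusted p = 0.0764) passed, Cps1 passed as before (log2 -0.78), and Slc25a13 was lower on the central side (log2 -0.67, adjusted p = 0.00456). With all nuclei Gls2 was lower on the central side in 4 of 4 samples (log2 -1.99, SE 0.45, adjusted p = 0.00162), on 63 and 13 UMIs, but not without mouse 1 (log2 -1.60, adjusted p = 0.106). Cps1 was lower there in 4 of 4 samples, at 1224 ± 263 against 2136 ± 305 CPM (log2 -0.81, SE 0.16, adjusted p = 1.54e-04), and it did not pass when nuclei were split in 2 groups instead of 3 (log2 -0.03, adjusted p = 1.00). These calls compare with 1.32% of genes higher and 0.826% lower. The slope differed from that of Liver for Arg1 (log2 0.70, SE 0.20, adjusted p = 0.0311; 2.09% of genes differed), and from that of Cell Suspension for Glul (log2 2.20, SE 0.48, adjusted p = 0.00142; 1.47% of genes differed). Neither difference passed without the nuclei named as non-cultured (Arg1 log2 0.65, adjusted p = 0.0894; Glul log2 -0.72, adjusted p = 0.977, in the other direction), whereas the slope of Slc25a13 then differed from that of Liver (log2 -0.91, adjusted p = 7.82e-05) and of Cell Suspension (log2 -0.71, adjusted p = 0.00791).

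**Figure D4:**
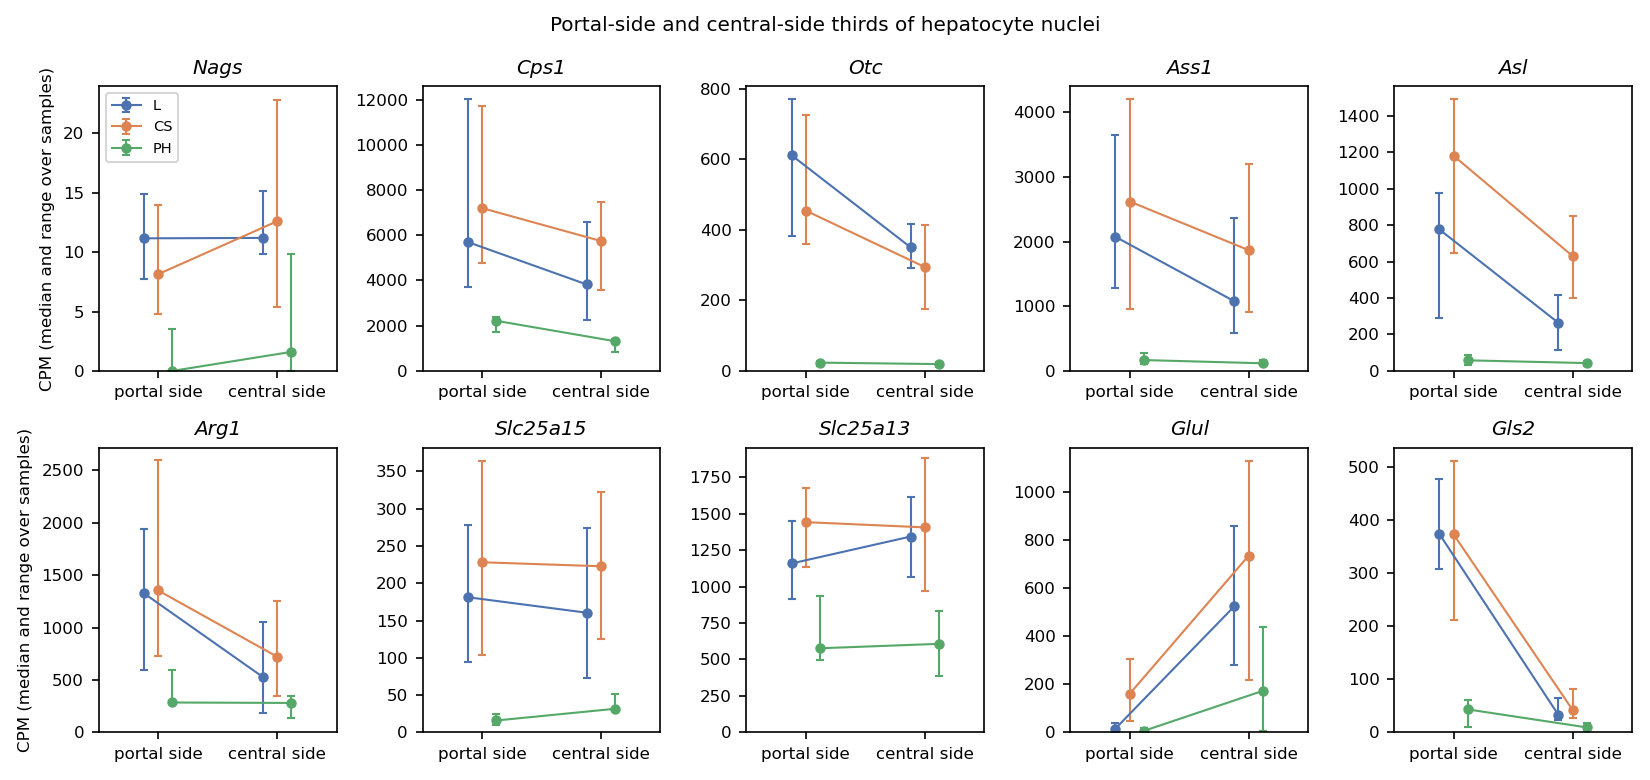
Level of each member (TMM-scaled CPM) in portal-side and central-side hepatocyte nuclei of Liver (L, 8 samples), Cell Suspension (CS, 8 samples) and Primary Hepatocytes (PH, 4 samples), with points for the median and bars for the range over samples. In Liver, Glul climbs and Gls2 drops toward the central side, the other enzymes of the cycle drop less, and Nags, Slc25a15 and Slc25a13 are nearly level, while 239 of the 260 central-side Glul UMIs of PH come from 6 nuclei with non-cultured names.

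The clusters of the deposited table showed the same concentration of Glul without a score. Clusters 18 and 23, both named hepatocytes, held 1979 and 1618 CPM of Glul over their nuclei, with 444 and 662 CPM of Cps1 and 59.1 and 49.7 CPM of Arg1, whereas Slc25a13 stood at 1321 and 1005 CPM. Among the cultured clusters taken as hepatocytes, Cps1 was 1725 CPM in cluster 1, 1669 in cluster 17, 1156 in cluster 8, 888 in cluster 0 and 509 in cluster 14. Slc25a13 ran in another order there, at 818 CPM in cluster 0 and 299 in cluster 17. The clusters highest in Cps1, 1 and 17, are those whose stellate markers, each list taken against its own mean over clusters, stood higher than their hepatocyte markers. Cluster 8, which held 1450 cultured nuclei of a total of 2321, had a median of 1608 UMIs per nucleus and an Otc level of 57.2 CPM. Clusters were built from all genes, so these values are a description with no test.

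Around the members, 23 further genes of ammonia, glutamine, ornithine and arginine metabolism were counted. From Liver to Primary Hepatocytes 16 fell, where 26.3% of all genes tested fell, and 6 rose, where 27.4% did. Rises were thus about as common as over all genes. The other 1 (Slc25a2) did not pass, and the median log2 difference of the list was -1.60. Some carriers and helpers fell as far as the members, and others fell less, such as the amino acid transporter gene Slc38a2 (log2 -0.51), the aspartate and glutamate carrier gene Slc25a12 (log2 -0.73) and the mitochondrial aspartate aminotransferase gene Got2 (log2 -0.84). The mitochondrial carbonic anhydrase gene Car5a, whose enzyme supplies bicarbonate to carbamoyl phosphate synthetase, went from 175 to 2.97 CPM (log2 -5.88, SE 0.18, adjusted p = 3.40e-21), the glutamine transporter gene Slc38a3 from 1085 to 38.0 (log2 -4.84, SE 0.15, adjusted p = 3.32e-21), and the glutamate transporter gene Slc1a2 from 440 to 14.8 (log2 -4.90, SE 0.25, adjusted p = 8.60e-17). Aqp9, a channel for urea and glycerol (log2 -3.82), Oat, the ornithine aminotransferase gene (log2 -2.76), and Glud1, the glutamate dehydrogenase gene (log2 -1.60), fell too.

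Among the genes that rose was the counterpart of a member from other tissues. Arg2, the mitochondrial arginase gene, went from 1.38 to 2.58 CPM in Liver to 9.75 to 25.1 in Primary Hepatocytes (log2 2.87, SE 0.21, adjusted p = 5.20e-13), as Arg1 fell. Asns (asparagine synthetase) and Aldh18a1 (proline and ornithine synthesis) rose as well (log2 1.96, SE 0.24, adjusted p = 2.00e-08 and log2 1.96, SE 0.26, adjusted p = 1.39e-07), as did Odc1 (1.02) and Sirt5 (0.44). From Liver to Cell Suspension 10 of the 23 genes rose, where 8.15% of all genes rose, led by Got1 (log2 1.76, SE 0.22, adjusted p = 6.00e-07), 2 fell (Sirt5 and Slc1a2), where 14.2% of all genes fell, and 11 did not pass. From Cell Suspension to Primary Hepatocytes 16 fell, where 23.5% of all genes fell, 5 rose, where 26.9% of all genes rose, and 2 did not pass. On the central side of Liver 7 of the 23 genes were higher and 8 lower, where 7.64% and 7.31% of all genes were, and 8 did not pass. Slc1a2 (6.75), Oat (3.84) and Rhbg, an ammonia transporter gene (3.07), were higher on the log2 scale together with Glul. Rhbg averaged only 1.58 CPM in Liver hepatocyte nuclei.

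Of 6 known regulators of urea cycle genes, 5 fell from Liver to Primary Hepatocytes, where 26.3% of all genes fell. The glucagon receptor gene Gcgr went from 161 to 243 CPM to 10.6 to 23.3 (log2 -3.66, SE 0.15, adjusted p = 8.81e-19). Ppargc1a (log2 -2.51, SE 0.20, adjusted p = 4.43e-12), Cebpa (log2 -2.17, SE 0.18, adjusted p = 6.31e-12) and Hnf4a (log2 -1.65, SE 0.15, adjusted p = 3.98e-11), which code for a coactivator and for liver transcription factors, fell too, and the glucocorticoid receptor gene Nr3c1 fell least (log2 -0.65, SE 0.13, adjusted p = 7.84e-05). Cebpb did not pass (log2 0.47, SE 0.25, adjusted p = 0.112), but it was higher in Cell Suspension than in Liver (log2 2.41, SE 0.26, adjusted p = 2.62e-08), along with Cebpa (log2 0.89, SE 0.17, adjusted p = 2.12e-04) and Gcgr (log2 0.64, SE 0.14, adjusted p = 6.27e-04). All 6 fell from Cell Suspension to Primary Hepatocytes, where 23.5% of all genes fell.

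Over the 24 samples, the genes with the pattern most like that of Cps1 by Pearson correlation of log2(CPM + 1), among 8616 genes of at least 10 CPM on average, were Gm15883 (0.96), Pdia5 (0.96), Zhx3 (0.95), Afg1l (0.95) and Fxyd1 (0.95). Those most like Glul were Chuk (0.98), Gcdh (0.98), Slc27a2 (0.98), Eci2 (0.97) and Mgrn1 (0.97). The samples share the 3 sample types, and within sample types the correlations were 0.74 for Pdia5 with Cps1 and 0.50 for Chuk with Glul. These are descriptions of likeness across samples, with no test.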

How the data were processed

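Nuclei of 24 samples were hashtagged and sequenced in 6 pools of 4 samples. Using Salmon, Alevin and Alevin-fry, the authors pseudo-aligned reads to spliced and unspliced transcripts modified from GRCm38, and deposited raw counts (UMIs) per barcode and gene, raw counts of hashtags, and a table of nuclei with doublets removed that gives each nucleus a sample, a cluster, counts and a margin as a fraction. The hashtag CD2 belongs to Cell Suspension in the deposited table, and its mouse number was inferred from the digit, since no other hashtag was left for mouse 2. UMIs were summed per sample and cell type. Genes with at least 10 counts entered quasi-likelihood tests in edgeR 4.0.16 (R 4.3.3) with TMM factors and 1 coefficient per sample type, and calls were made at a Benjamini-Hochberg adjusted p under 0.05. Splicing state, cell type and lobule side were tested as interactions with the sample as a block, and an SE is the log2 value over the root of its F statistic. Alternatives were DESeq2 1.42.0, RLE factors, other count filters, the mouse as a block, the pool as a covariate, spliced or unspliced UMIs alone, thinned sums, other sets of nuclei, other splits of the zonation rank and leaving out each mouse.

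The members and lists were chosen with earlier results of these data known. All members are named, other genes come from the pathway and regulator lists and the likeness rule. Tests were tried on simulated data with known changes in few genes, as many up as down, where sizes came back without bias. Such data could not show a bias that arises when a large share of genes changes, as in culture. In the simulation the test of the hepatocyte to endothelial lead missed most of the smaller changes and that of the splicing ratio missed some. A member that did not pass in those tests may thus still differ. Whether samples pair by mouse was checked over 3838 genes, as mice gave all 3 sample types: deviations of the same mouse correlated at 0.426 to 0.903 between Liver and Cell Suspension, with medians of 0.0554 between Liver and Primary Hepatocytes and 0.0238 between Cell Suspension and Primary Hepatocytes. Bulk data and proteomics were not analysed here, and 1 gene of the pathway list, counted with the others, is not reported by name.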

Additional observations from a re-analysis of the deposited data

Results flagged for a closer look

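Of 30 groups of 8 samples checked for a sample far from the rest, 1 had such a sample: Asl in Primary Hepatocytes of mouse 3, at 42.1 CPM, above the others. Chance gives about 1 in 20 groups.

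The comparisons between sample types below are values of a tested difference, on the log2 scale. Relative to other genes, the spliced to unspliced ratio differed from Liver to Primary Hepatocytes for Otc (1.80), Ass1 (1.12), Asl (1.02), Slc25a15 (0.64), Glul (0.49) and Gls2 (0.46), from Cell Suspension to Primary Hepatocytes for Otc (1.87), Asl (1.55), Ass1 (1.25), Glul (1.05), Slc25a15 (0.97) and Slc25a13 (0.51), and from Liver to Cell Suspension for Gls2 (0.65), Glul (-0.56) and Asl (-0.53). The lead of hepatocyte over endothelial nuclei differed from Liver to Primary Hepatocytes for Glul (-4.39), Otc (-3.95), Asl (-2.79), Ass1 (-2.77), Gls2 (-2.08), Slc25a15 (-2.00), Arg1 (-1.98), Cps1 (-1.87) and Slc25a13 (-1.59), from Cell Suspension to Primary Hepatocytes for Otc (-4.07), Glul (-3.61), Asl (-3.38), Ass1 (-2.94), Gls2 (-2.59), Slc25a15 (-2.39), Cps1 (-2.30), Arg1 (-1.98) and Slc25a13 (-1.35), and from Liver to Cell Suspension for Glul (-0.78). The slope from the portal to the central side differed from Liver to Primary Hepatocytes for Arg1 (0.70), from Cell Suspension to Primary Hepatocytes for Glul (2.20), where 239 of 260 central-side UMIs of culture came from 6 nuclei of non-cultured name, and from Liver to Cell Suspension for Glul (-2.67), Asl (0.66) and Ass1 (0.60). Of the members, Slc25a13 showed the smallest shrinkage of its hepatocyte lead among those called.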

How the results depend on the processing

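With the mouse as a replicate block, 10, 10 and 2 members passed for the level from Liver to Primary Hepatocytes, from Cell Suspension to Primary Hepatocytes and from Liver to Cell Suspension, and the block changed no call of a member. No tabulated result reversed, but the difference of the Glul side slope from Cell Suspension to Primary Hepatocytes changed sign without the cultured nuclei of non-cultured name (log2 -0.72, adjusted p = 0.977). Leaving mice out aside, 64 of 68 counts of members stayed within 1.5 times their value and 659 of 680 log2 values kept their call. The 4 counts that moved all belong to Liver against Cell Suspension: 1 member passed for the level with the pool as a covariate, 5 for the splicing ratio with RLE factors, which added Slc25a13 and Slc25a15 as lower relative to other genes, and 0 for the hepatocyte to endothelial lead both under the stricter edgeR filter and without clusters 1 and 17. The cause was not tested. When each mouse was left out, 92 of 96 counts stayed within 1.5 times. The counts ran from 0 to 2 for the hepatocyte to endothelial lead from Liver to Cell Suspension, 4 to 7 and 2 to 3 for the splicing ratio from Liver to Primary Hepatocytes and to Cell Suspension, 7 to 8 for the sides of Liver and of Cell Suspension and 2 to 4 for those of Primary Hepatocytes, and stayed at 10, 10 and 2 for the level, at 9 and 9 for the lead in culture and at 6 for the splicing ratio from Cell Suspension to Primary Hepatocytes. The levels of the 10 members in culture also passed without cluster 8 and without nuclei named against their sample type (73 cultured and 918 others) and without clusters 1 and 17, where Cps1 fell further (log2 -3.24, adjusted p = 4.67e-13) and its lead over endothelial nuclei in culture was smaller (log2 0.59, adjusted p = 4.49e-04), and these settings and the sides without non-cultured names were chosen after seeing the data. Thinning every sum to the shallowest sample lowered the count over all genes from 14379 to 6622 between Liver and Primary Hepatocytes, while the 10 members still passed. With unspliced UMIs alone, Nags did not pass from Cell Suspension to Primary Hepatocytes (log2 -1.70, adjusted p = 0.0746). Depth limits the endothelial background, with 2 Nags UMIs in culture, and the sides of the lobule in culture, with 4 samples.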
